A study of Mus musculus with 16 samples.

Results

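The 35 genes described here act at the passage from G1 into S phase and in the copying of DNA itself. They were taken by symbol from the rows of both deposited count tables, and all 35 were found among the 22675 genes that the tables share. All 35 also passed the filter on low counts in the main fit of each comparison. Grouped by role, 11 encode the CMG helicase, 3 control licensing, and 3 are the transcription factor E2F1 and the E cyclins. A further 8 encode polymerase, clamp, clamp loader, single-strand binding and fork mediator proteins, 2 mature Okazaki fragments, 4 supply deoxynucleotides and 4 assemble or maintain chromatin behind the fork.

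Gene expression was measured in 16 Smart-seq2 libraries of about 1000 sorted mouse spleen cells each, 4 per group. KOTP and KOTN were tdTomato-positive and tdTomato-negative cells with 2 copies of the Zfp318 reporter allele ZSDAT (Zfp318ZSDAT/ZSDAT), and HetTP and HetTN were the same populations with 1 copy (Zfp318ZSDAT/+). All mice were C57BL/6 and carried AID-Cre (a Cre recombinase under the control of the activation-induced deaminase gene), the B1-8hi heavy chain (which binds the haptens NP and NIP) and GFP. They had been immunized 7 days earlier with NP-OVA, LPS and alum. The cells were sorted as B220+ and NIP-binding B cells with the memory phenotype CD38+ IgD-, and without the germinal center markers GL7 and FAS or the plasma cell marker CD138. Whether each library came from its own animal or from pooled animals is not stated, so the p-values reflect only how these libraries vary, and that variation may be technical.

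Zfp318, the targeted gene, averaged 2.0 ± 1.05 CPM in KOTP and 102.1 ± 16.4 CPM in HetTP libraries, and 2.5 ± 2.33 CPM in KOTN and 118.3 ± 35 CPM in HetTN libraries (SD, n = 4 each). CPM stands for counts scaled to a common library size, here after adjustment by the trimmed mean of M values (TMM). Total counts per library ranged from 7748787 to 15742445. The B cell genes Ms4a1 and Cd79a were detected in every library. Each genotype was deposited as its own table. For each mapped read there are 0.369 to 0.419 counts in the KO table and 1.35 to 1.5 in the heterozygous one, so genotype and table cannot be told apart in any comparison of KO with heterozygous cells. The coefficient that edgeR names biological variation came to 0.2 for KO and 0.845 for heterozygous libraries, and it may hold technical variation. Between 11434 and 11684 genes had a count in KO libraries, against between 9662 and 10593 in heterozygous libraries. T cell markers, of which Trac made up most in the heterozygous libraries, summed to between 1.1 and 3.5 CPM in KOTP libraries, against between 111.2 and 519.5 CPM in HetTP libraries. The sum lay between 0.7 and 1.6 CPM in KOTN libraries, against between 156.5 and 403.3 CPM in HetTN libraries. Trac alone had 349.4, 161.3, 432.9 and 110.8 CPM in HetTP libraries and 379.2, 100.4, 283.8 and 353.7 CPM in HetTN libraries. Cd3d, in contrast, had 0.5, 0.0, 30.0 and 0.4 CPM in HetTP libraries and 14.2, 23.4, 0.0 and 1.8 CPM in HetTN libraries. In KOTP libraries Cd3d had 1.8, 1.1, 0.2 and 0.4 CPM. Of the 8 T cell markers 4 were tested, and 1 was called, as lower in KO, in each genotype comparison. Cd4 was at 0 in every library.

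Replication starts at origins on which the MCM2-7 helicase has been loaded in G1 by CDC6 and CDT1. At the entry into S phase, CDC45 and the 4 GINS proteins join MCM2-7 to form the active CMG helicase, and polymerases held by the PCNA clamp copy both strands. E2F transcription factors drive many of these genes late in G1, and B cells that proliferate after antigen contact, such as germinal center cells, express them strongly, while resting memory cells are mostly out of the cycle. RNA was measured in bulk, so fewer cells in S phase and less of these RNAs per cell cannot be told apart.

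E2F sites are the best known promoter element of replication genes, so the promoter windows of the genes were searched for them. RefSeq windows (GRCm38.p6, 250 bases before to 50 bases after an annotated start) were held for 29 of the 35 genes in 34 windows, and none for Ccne2, Gins1, Gins2, Gins4, Mcm4 and Pole. The words searched were TTTCCCGC, TTTGGCGC, TTTGCCGC and TTTCGCGC on both strands. At least 1 word stood in a window of 13 of these 29 genes (44.8%), against 4.9% of all tested genes with a window (8001 genes). The median GC content of the windows was 60.7% in both sets. A CCAAT word (CCAAT on either strand) stood in 58.6% of the 29 genes, against 43.4% of tested genes, and the cell cycle homology word TTTGAA in 13.8%, against 14.4%. A match is a description of the letters and shows no binding. The 250 bases before the start are printed below for the 6 genes that held an E2F word there and that were lower in KOTP than in HetTP cells, with the E2F words in capitals. The Mcm7 and Uhrf1 windows belong to the second of several annotated starts. In Mcm5 the words at -153 and -149 overlap, as do those at -110 and -106 in Mcm6, so each pair is printed as a single run of capitals.
Mcm5, chr8:75109259-75109508, plus strand: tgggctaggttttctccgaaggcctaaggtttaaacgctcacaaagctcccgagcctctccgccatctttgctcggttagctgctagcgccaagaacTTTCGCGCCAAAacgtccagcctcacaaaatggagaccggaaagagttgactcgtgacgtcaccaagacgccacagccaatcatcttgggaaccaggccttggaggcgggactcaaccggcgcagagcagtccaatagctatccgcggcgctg
Mcm6, chr1:128359706-128359955, minus strand: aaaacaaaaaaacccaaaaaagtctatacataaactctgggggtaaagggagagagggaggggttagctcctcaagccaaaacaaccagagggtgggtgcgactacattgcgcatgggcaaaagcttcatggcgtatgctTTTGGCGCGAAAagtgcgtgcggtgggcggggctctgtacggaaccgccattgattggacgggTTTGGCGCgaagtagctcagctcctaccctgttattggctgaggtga
Mcm7, chr5:138171884-138172133, minus strand: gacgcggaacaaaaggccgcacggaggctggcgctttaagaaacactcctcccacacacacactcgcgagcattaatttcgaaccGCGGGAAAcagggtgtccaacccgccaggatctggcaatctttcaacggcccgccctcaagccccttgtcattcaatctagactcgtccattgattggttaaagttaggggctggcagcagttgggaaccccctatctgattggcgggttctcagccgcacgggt
Cdc6, chr11:98907901-98908150, plus strand: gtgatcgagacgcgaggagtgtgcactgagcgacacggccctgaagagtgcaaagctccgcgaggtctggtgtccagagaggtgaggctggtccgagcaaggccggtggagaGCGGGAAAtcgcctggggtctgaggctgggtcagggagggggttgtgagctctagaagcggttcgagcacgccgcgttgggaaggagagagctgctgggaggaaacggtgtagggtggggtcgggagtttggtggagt
Rfc3, chr5:151651209-151651458, minus strand: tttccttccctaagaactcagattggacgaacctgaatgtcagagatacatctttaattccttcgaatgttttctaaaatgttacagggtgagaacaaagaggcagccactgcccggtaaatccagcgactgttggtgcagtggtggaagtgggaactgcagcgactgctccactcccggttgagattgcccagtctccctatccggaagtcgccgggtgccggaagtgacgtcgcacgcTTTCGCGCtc
Uhrf1, chr17:56304063-56304312, plus strand: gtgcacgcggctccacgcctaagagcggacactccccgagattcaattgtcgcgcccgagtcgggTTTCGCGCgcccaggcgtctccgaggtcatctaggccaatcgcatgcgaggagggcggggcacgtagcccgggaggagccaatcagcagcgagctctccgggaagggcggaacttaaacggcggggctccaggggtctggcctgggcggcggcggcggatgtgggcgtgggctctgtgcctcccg

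Replication genes were lower in KO than in heterozygous tdTomato-positive cells. Of the 35 genes, 24 were lower in KOTP than in HetTP cells at an adjusted p under 0.05 and none was higher, by edgeR's quasi-likelihood test with Benjamini-Hochberg adjustment over all 10687 genes tested. Among all genes tested, 10.3% were called, 5.22% lower and 5.06% higher. All 35 estimates lay below 0 (34 with limma voom, where Gins1 was at 0.59), with a median log2 fold change of -1.48, against -0.03 over all genes. In 22 of the 35 every KOTP library lay below every HetTP library, which 8.71% of all tested genes did. Summed over the 35 genes, the level was 1291.1, 1202.7, 1214.6 and 1295.7 CPM in KOTP libraries, against 2581.1, 3994.2, 2926.4 and 3497.0 CPM in HetTP libraries. The KOTP libraries stood close together at about 0.385 times the HetTP mean, and the highest of them was far below the lowest HetTP library.

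In tdTomato-negative cells 16 of the 35 were lower in KOTN than in HetTN cells and none was higher, while 10.5% of all genes tested were called, 4.88% lower and 5.61% higher. The median log2 fold change was -0.99, against 0 over all genes, and 34 estimates lay below 0. The summed level was 1563.5, 1659.4, 1609.9 and 1788.1 CPM in KOTN libraries, against 3429.9, 2911.3, 3626.1 and 3330.1 CPM in HetTN libraries, a ratio of means of 0.498 with no overlap. Both genotype comparisons called 15 genes: Cdc45, Chaf1a, Lig1, Mcm3, Mcm4, Mcm5, Mcm6, Mcm7, Pcna, Pold1, Rfc3, Rfc5, Rrm1, Rrm2 and Uhrf1. A further 9 passed the threshold in tdTomato-positive cells alone (Cdc6, Cdt1, Chaf1b, Fen1, Gins2, Mcm2, Rfc4, Slbp and Tyms) and 1, Clspn, in tdTomato-negative cells alone. None of the 35 passed the test of a difference between the populations, which is given with the reporter comparisons. On simulated counts that kept the spread of each table, more than the nominal share of the genotype calls were of unchanged genes. With limma voom and weights by group, which allow each group its own spread, 23 of the 35 were lower in KOTP than in HetTP and 15 lower in KOTN than in HetTN. Over all 10687 genes, voom called 723 lower and 501 higher in KOTP, and 475 lower and 357 higher in KOTN.

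**Figure D1:**
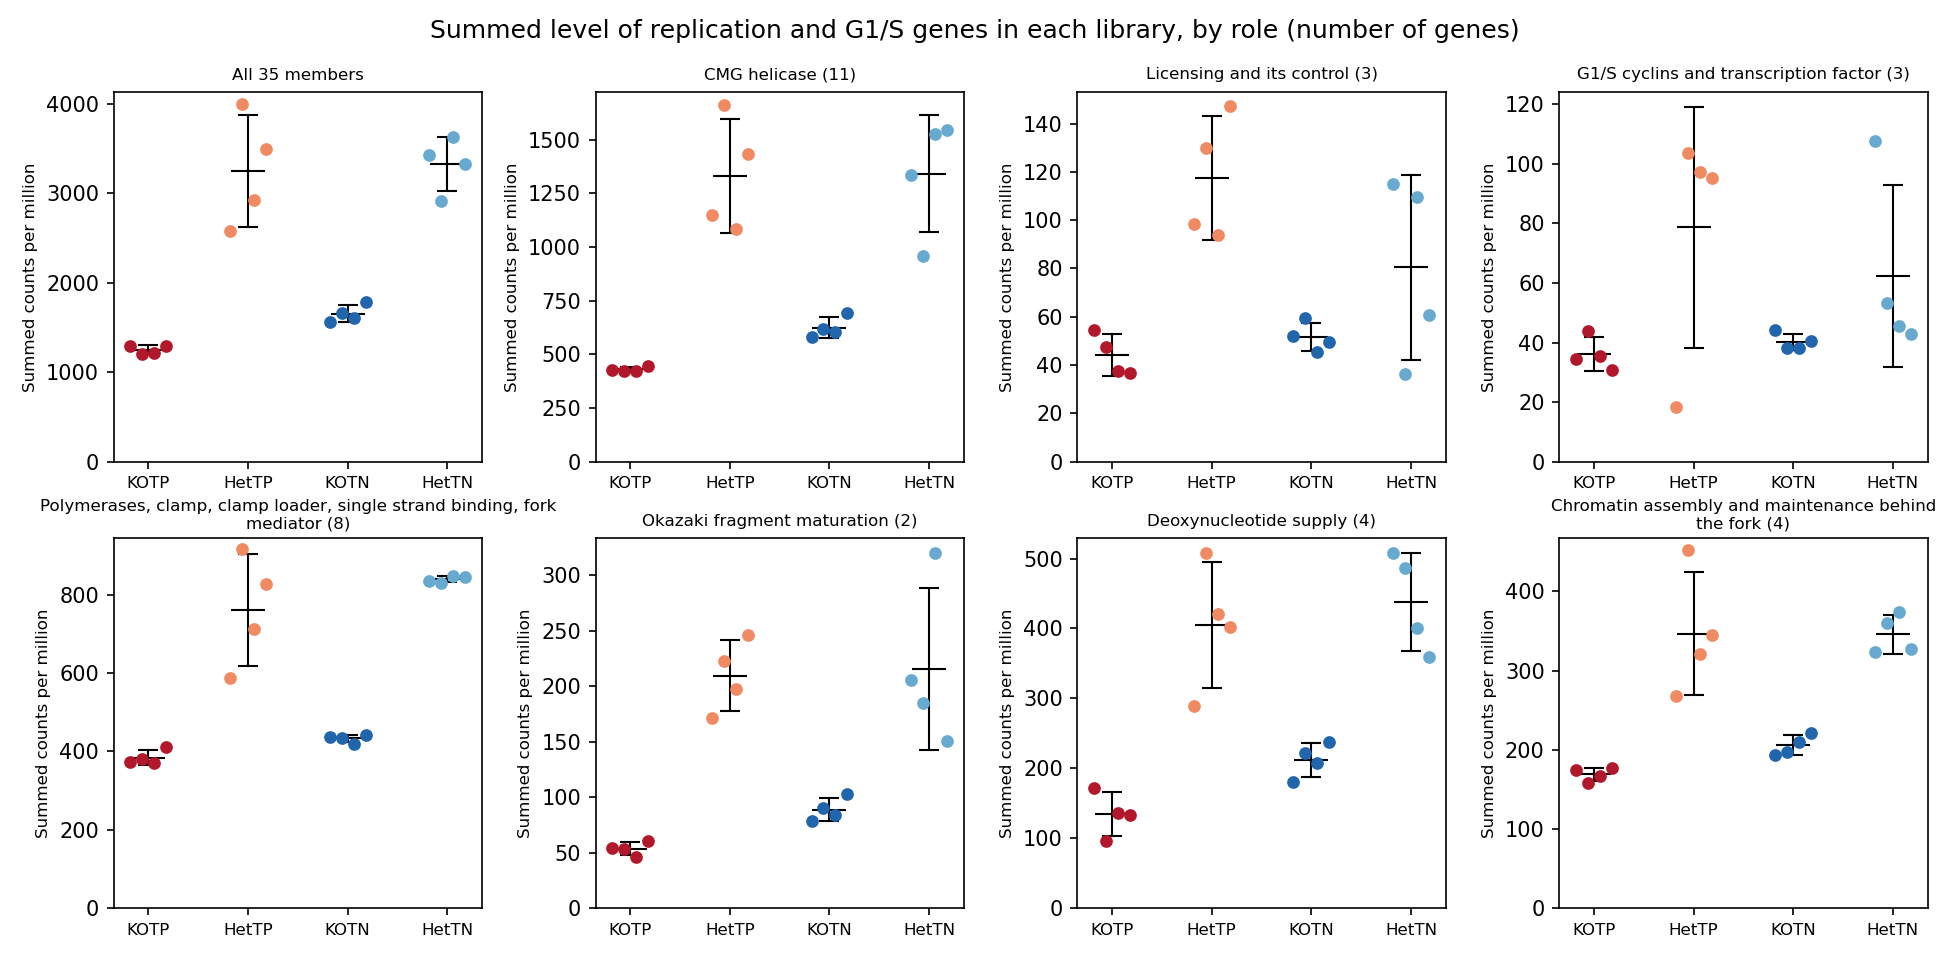
Summed CPM of all 35 genes and of each role group (number of genes in brackets) in each of the 16 libraries; points are libraries, the long bar is the mean and the whiskers are 1 SD over 4 libraries. The KO libraries cluster tightly between 1202.7 and 1788.1 CPM for the whole set, below all heterozygous libraries, which range from 2581.1 to 3994.2 CPM.

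Markers of other cell types and other programs also differed between the genotypes. The T cell sums, which in the heterozygous libraries were mostly Trac, are given above. The 8 B cell identity genes summed to between 14697.3 and 16440.3 CPM in KOTP libraries, against between 9316.1 and 11521.3 CPM in HetTP libraries, with 5 of the 8 higher and Pax5 lower in KOTP. Ighd, which encodes the IgD heavy chain that the sort selected against, averaged 23.5 ± 5.7 CPM in KOTP and 906.0 ± 153.0 CPM in HetTP libraries. In TN cells Ighd averaged 29.2 ± 10.4 CPM in KOTN and 911.5 ± 110.0 CPM in HetTN libraries. These RNA values do not show whether cells with IgD protein passed the sort. Cd38, another marker of the sort, averaged 378.6 ± 44.8 CPM in KOTP and 123.2 ± 24.8 CPM in HetTP libraries. Jchain, which encodes the joining chain of secreted antibody, averaged 6.3 ± 1.04 CPM in KOTP and 136.5 ± 48.8 CPM in HetTP libraries. The sum of the 8 plasma cell genes, Jchain among them, went the other way. It was between 1101.9 and 1203.6 CPM in KOTP libraries, against between 837.2 and 936.7 CPM in HetTP libraries. Mzb1 made up most of it, at 1022.2 ± 50.9 CPM in KOTP and 577.7 ± 66.8 CPM in HetTP libraries. Of the 7 plasma cell genes tested, 2 were lower and 1 higher in KOTP. The 12 macrophage and myeloid markers summed to between 78.4 and 110.2 CPM in KOTP libraries, against between 148.4 and 780.2 CPM in HetTP libraries, and 7 of the 12 were lower in KOTP. Adgre1, which encodes the macrophage marker F4/80, ran the other way without being called, at 39.5 ± 10.7 CPM in KOTP and 9.8 ± 9.51 CPM in HetTP libraries and at 42.4 ± 6.14 CPM in KOTN and 12.0 ± 8.72 CPM in HetTN libraries. In tdTomato-negative cells this sum was between 110.4 and 164.2 CPM in KOTN libraries, against between 550.2 and 1425.1 CPM in HetTN libraries. The 10 germinal center markers summed to between 274.9 and 352.4 CPM in KOTP libraries, against between 626.9 and 1102.8 CPM in HetTP libraries, and 5 of the 10 were lower in KOTP. In KOTN libraries they summed to between 445.3 and 572.4 CPM, against between 765.5 and 1192.4 CPM in HetTN libraries. Of 18 genes of G2, M and mitosis, 17 were tested, and 13 of these were lower in KOTP than in HetTP and 10 lower in KOTN than in HetTN. Their part in the result on replication genes was not tested. HetTP replicate 2 had the highest summed level of the 35 genes in its group and the lowest macrophage sum (148.4 CPM). It also had the highest germinal center sum (1102.8 CPM) and the highest sum of G2, M and mitosis genes (2434.1 CPM) of that group. HetTN replicate 2, in contrast, had the lowest summed level of the 35 genes in its group (2911.3 CPM). Its germinal center sum (1192.4 CPM), its sum of G2, M and mitosis genes (2715.8 CPM) and its macrophage sum (1425.1 CPM) were the highest of that group. With HetTP replicate 3 (the highest T cell sum) and HetTN replicate 2 (the highest macrophage sum) left out together, a choice made after seeing the data, 22 of the 35 genes were lower in KOTP than in HetTP and 19 lower in KOTN than in HetTN. Calls among all genes rose as well, from 1099 to 1310 (649 lower) and from 1121 to 1325 (595 lower). The libraries kept still had T cell sums between 111.2 and 351.9 CPM in HetTP and between 283.8 and 403.3 CPM in HetTN. These counts therefore do not show what the other cell types contribute, which was not tested.

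Most of the helicase genes were lower in KOTP cells, while Gins1, Gins3 and Gins4 were called in neither population. Of the 11, 8 were lower in KOTP than in HetTP cells and 6 lower in KOTN than in HetTN cells, with median log2 fold changes of -1.74 and -1.05. Mcm4, which lies at chr16:15623897-15637400 (ENSMUSG00000022673, GRCm38), encodes an MCM2-7 subunit and had the smallest p of all 35 genes. Mcm4 had 50.5, 59.0, 47.4 and 53.9 CPM in KOTP libraries, against 142.8, 234.7, 158.0 and 193.1 CPM in HetTP libraries. In TN cells, Mcm4 had 64.4, 73.9, 68.6 and 75.9 CPM in KOTN libraries, against 119.9, 114.4, 156.4 and 180.3 CPM in HetTN libraries. Every KO library lay below every heterozygous library of its population. The log2 fold change of Mcm4 was -1.79 ± 0.19 (SE, adjusted p = 8.11e-06) for KOTP over HetTP and -1.01 ± 0.18 (adjusted p = 0.00168) for KOTN over HetTN.

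Mcm5 (chr8:75109569-75128439, plus strand) had the largest fold change of the 6 MCM2-7 genes. Mcm5 had 34.2, 43.5, 52.3 and 39.5 CPM in KOTP libraries, against 171.8, 268.0, 121.4 and 220.4 CPM in HetTP libraries. In TN cells, Mcm5 had 66.9, 78.0, 63.6 and 77.0 CPM in KOTN libraries, against 237.6, 145.4, 262.8 and 197.3 CPM in HetTN libraries. The groups did not overlap in either population, and the ratios were 0.217 for KOTP over HetTP (log2 -2.21 ± 0.24, adjusted p = 9.17e-06) and 0.339 for KOTN over HetTN (log2 -1.56 ± 0.23, adjusted p = 0.000266). Mcm3 (chr1:20802968-20820312, minus strand) followed the same order of groups. Mcm3 had 41.3, 48.8, 53.1 and 62.7 CPM in KOTP libraries, against 171.4, 239.3, 138.0 and 206.6 CPM in HetTP libraries. In TN cells, Mcm3 had 71.9, 81.7, 77.7 and 101.4 CPM in KOTN libraries, against 134.6, 224.9, 233.9 and 205.8 CPM in HetTN libraries. Again no KO library reached a heterozygous one, with log2 fold changes of -1.87 ± 0.21 (adjusted p = 1.41e-05) and -1.26 ± 0.21 (adjusted p = 0.00071).

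Mcm2 and Mcm6 differed less evenly, because single heterozygous libraries were low. Mcm2 had 49.2, 41.9, 47.9 and 56.4 CPM in KOTP libraries, against 130.4, 191.8, 73.2 and 213.8 CPM in HetTP libraries. In TN cells, Mcm2 had 67.2, 63.9, 73.7 and 82.5 CPM in KOTN libraries, against 177.8, 40, 200.9 and 176.8 CPM in HetTN libraries. HetTN replicate 2 lay below all KOTN libraries, and the call was made in tdTomato-positive cells (log2 -1.64 ± 0.37, adjusted p = 0.00697) but not in tdTomato-negative cells (log2 -1.05 ± 0.37, adjusted p = 0.0752). Mcm6 had 82.8, 65.9, 74.9 and 80.0 CPM in KOTP libraries, against 222.7, 265.4, 155.5 and 203.0 CPM in HetTP libraries. In TN cells, Mcm6 had 103.7, 100.8, 133.0 and 145.1 CPM in KOTN libraries, against 219.6, 97.9, 299.6 and 339.1 CPM in HetTN libraries. Here too HetTN replicate 2 was the low library, while the groups of tdTomato-positive cells did not overlap. Mcm6 was lower in both populations (log2 -1.48 ± 0.28, adjusted p = 0.00155, and log2 -0.99 ± 0.27, adjusted p = 0.0262), and the second call was lost in 5 of the 16 fits that left out 1 library, with an adjusted p of up to 0.0886 without KOTN replicate 2.

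**Figure D2:**
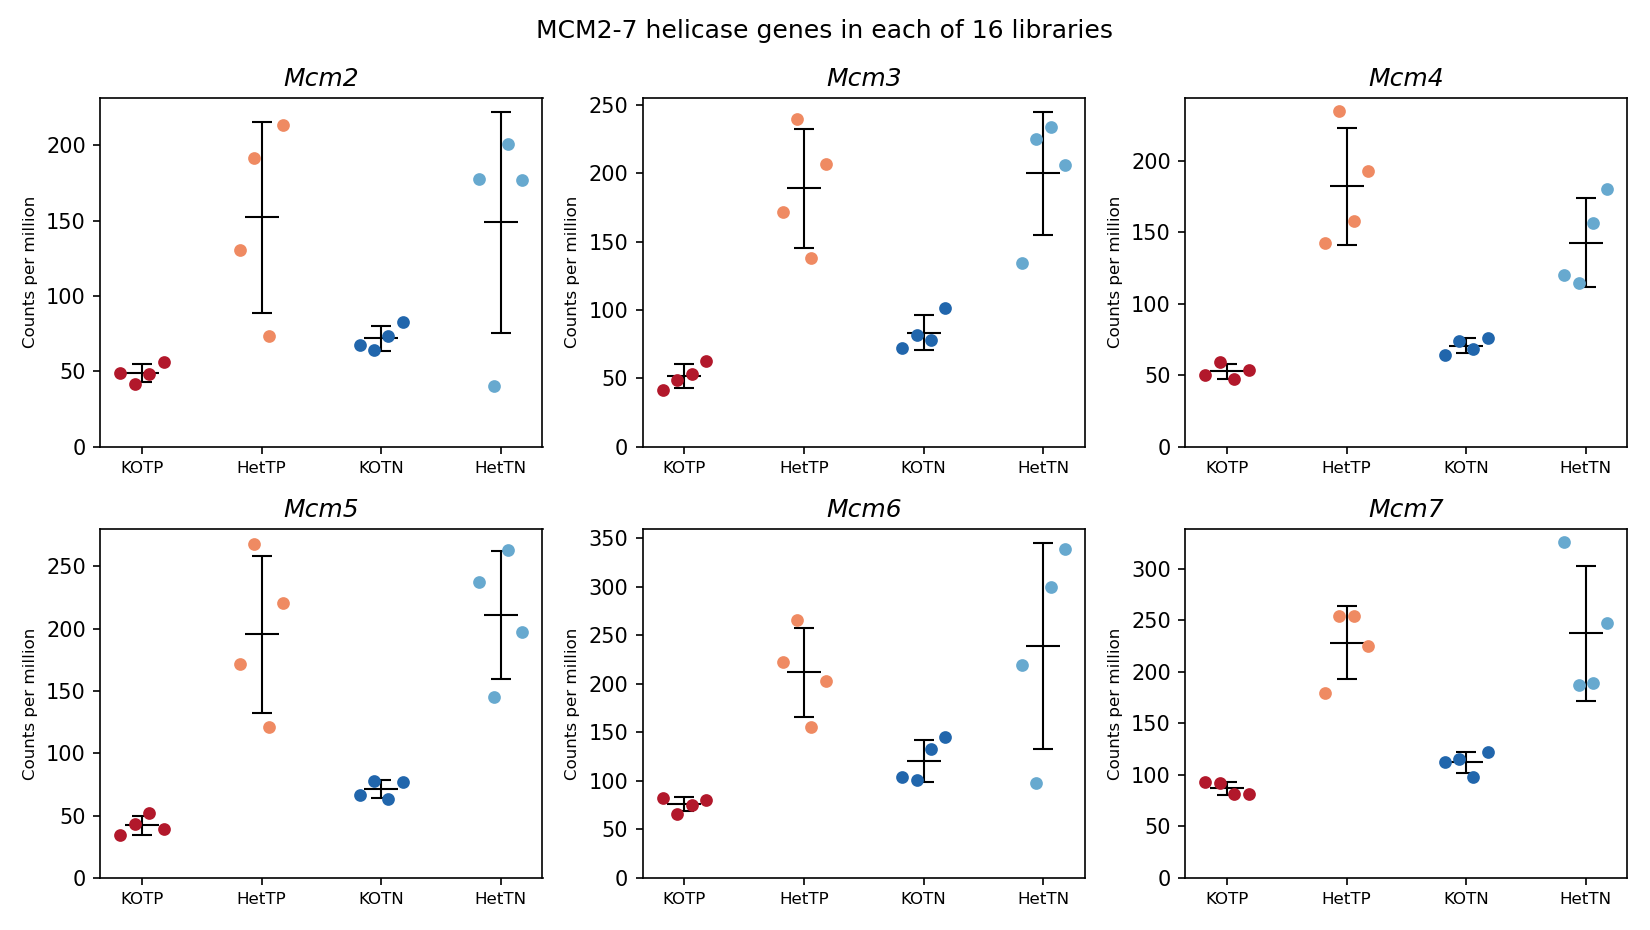
CPM of the 6 genes of the MCM2-7 helicase in each library; points are libraries, the long bar is the mean and the whiskers are 1 SD over 4 libraries. Every KOTP library lies below every HetTP library for all 6 genes, while HetTN replicate 2 is low for Mcm2 (40 CPM) and Mcm6 (97.9 CPM).

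Of the other helicase genes, Mcm7 and Cdc45 were called in both populations. Mcm7 averaged 86.8 ± 6.35 CPM in KOTP and 228.1 ± 35.3 CPM in HetTP libraries, a log2 fold change of -1.39 ± 0.18 (adjusted p = 4.4e-05). Cdc45, which joins the helicase at firing origins, averaged 12.5 ± 4.85 CPM in KOTP and 66.2 ± 21.6 CPM in HetTP libraries, a fold change of 0.189 (log2 -2.40 ± 0.32, adjusted p = 6.79e-05). In KOTN it averaged 21.7 ± 2.71 CPM and in HetTN 55.0 ± 9.45 CPM (log2 -1.34 ± 0.31, adjusted p = 0.00939). Among the GINS genes, Gins2 was lower in KOTP (8.0 ± 1.75 CPM, against 30.3 ± 13.5 CPM in HetTP, adjusted p = 0.00895). Gins4 was not called, at 42.8 ± 3.72 CPM in KOTP and 56.0 ± 14.9 CPM in HetTP libraries, with a 95% interval of the log2 fold change from -0.97 to 0.19. Gins1 ranged from 1.9 to 4.4 CPM in KOTP and from 0.0 to 27.6 CPM in HetTP libraries, and Gins3 from 4.2 to 7.2 CPM in KOTP and from 2.9 to 22.7 CPM in HetTP libraries. Neither passed the threshold (adjusted p = 0.432 for Gins1 and 0.569 for Gins3, the largest of the helicase genes), and the estimate for Gins1 changed from a log2 fold change of -1.74 with edgeR to 0.59 with limma voom.

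Among the 3 licensing genes, Cdt1 and Cdc6 were called in tdTomato-positive cells and none in tdTomato-negative cells. CDT1 and CDC6 load MCM2-7 onto origins, and DTL belongs to the ubiquitin ligase that removes CDT1 in S phase. Cdt1 had 44.3, 41.9, 33.7 and 29.9 CPM in KOTP libraries, against 97.5, 72.8, 67.0 and 93.1 CPM in HetTP libraries. In TN cells, Cdt1 had 39.2, 46.7, 32.2 and 30.1 CPM in KOTN libraries, against 78.6, 19.6, 64.0 and 56.4 CPM in HetTN libraries. Only the tdTomato-positive groups were apart (log2 -1.14 ± 0.32, adjusted p = 0.0254), since HetTN replicate 2 was below all KOTN libraries (log2 -0.56 ± 0.31, adjusted p = 0.314). The first call was lost in 5 of 16 fits with 1 library left out, with an adjusted p of up to 0.0922 without KOTP replicate 4. Cdc6 had 4.1, 2.5, 1.6 and 3.2 CPM in KOTP libraries, against 0.3, 43.5, 7.9 and 35.4 CPM in HetTP libraries. In TN cells, Cdc6 had 9.1, 5.1, 7.0 and 9.3 CPM in KOTN libraries, against 31.7, 14.1, 21.7 and 4.3 CPM in HetTN libraries. The heterozygous libraries spread widely and overlapped the KO libraries, and the call for KOTP over HetTP (log2 -2.92 ± 0.92, adjusted p = 0.0485) was lost in 12 of 16 such fits, with an adjusted p of 0.146 without HetTP replicate 2. Dtl had 6.3, 3.2, 2.4 and 3.5 CPM in KOTP libraries, against 0.8, 13.7, 19.0 and 19.0 CPM in HetTP libraries, and HetTP replicate 1 fell below all KOTP libraries (adjusted p = 0.432).

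E2f1 and the E cyclins, which act at the G1/S switch itself, gave no call in any comparison. Ccne2 had 3.5, 2.4, 1.8 and 4.4 CPM in KOTP libraries, against 3.7, 41.7, 19.8 and 11.7 CPM in HetTP libraries. HetTP replicate 1 lay within the KOTP range, and the other 3 HetTP libraries were above it (log2 -2.66 ± 0.92, adjusted p = 0.0782). E2f1 had 9.4, 10.7, 7.6 and 4.8 CPM in KOTP libraries, against 8.7, 13.9, 16.8 and 29.3 CPM in HetTP libraries, and these ranges overlapped (log2 -1.08 ± 0.49, adjusted p = 0.209). Ccne1 had 21.7, 30.9, 26 and 21.6 CPM in KOTP libraries, against 6.0, 48.2, 60.8 and 54.1 CPM in HetTP libraries. HetTP replicate 1 was again the lowest library and the other 3 were above the KOTP range, with a 95% interval of the log2 fold change from -1.91 to 0.39. In TN cells, Ccne1 averaged 25.8 ± 2.97 CPM in KOTN and 25.7 ± 22.4 CPM in HetTN libraries. The 95% intervals of all 3 genes reach past a 2-fold decrease, so these values do not show that the genes were alike in both genotypes.

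Pcna, Pold1, Rfc3 and Rfc5 were lower in both populations. Of the 8 genes, 5 were lower in KOTP than in HetTP cells and 5 lower in KOTN than in HetTN cells, with median log2 fold changes of -0.95 and -0.93. Pcna, the sliding clamp (chr2:132249162-132253314), had 109.6, 98.7, 114.0 and 112.5 CPM in KOTP libraries, against 137.4, 298.5, 218.8 and 214.9 CPM in HetTP libraries. In TN cells, Pcna had 136.4, 138.8, 123.4 and 139.2 CPM in KOTN libraries, against 276.6, 226.9, 306.6 and 370.1 CPM in HetTN libraries. Neither pair of groups overlapped, and Pcna was at 0.5 times its HetTP level in KOTP (log2 -1 ± 0.19, adjusted p = 0.0018) and at 0.456 times its HetTN level in KOTN (log2 -1.13 ± 0.19, adjusted p = 0.000853). Rfc3, a clamp loader subunit, had 33.8, 37.7, 41.3 and 37.8 CPM in KOTP libraries, against 71.0, 120.8, 92.0 and 107.7 CPM in HetTP libraries. In TN cells, Rfc3 had 44.3, 47.1, 54.3 and 50.4 CPM in KOTN libraries, against 130.0, 56.4, 79.6 and 76.1 CPM in HetTN libraries. All KO libraries were below all heterozygous ones (log2 -1.38 ± 0.24, adjusted p = 0.000804, and log2 -0.80 ± 0.23, adjusted p = 0.0344), though the second call was lost in 5 of 16 fits, with an adjusted p of 0.103 without HetTN replicate 1.

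Pold1, the catalytic subunit of polymerase delta, had 107.0, 116.4, 92.4 and 121.7 CPM in KOTP libraries, against 205.9, 180.8, 148.0 and 230.5 CPM in HetTP libraries. In TN cells, Pold1 had 127.4, 98.5, 86.6 and 86.5 CPM in KOTN libraries, against 208.9, 216.5, 166.5 and 169.2 CPM in HetTN libraries. The groups were apart in both populations (log2 -0.81 ± 0.17, adjusted p = 0.00474, and log2 -0.93 ± 0.17, adjusted p = 0.00195). Rfc4 and Rfc5, other clamp loader subunits, were called in KOTP with log2 fold changes of -1.30 and -0.90, and Rfc4 was not called in KOTN (adjusted p = 0.0673). Those calls were lost in 3 and 10 of the 16 fits with 1 library left out, with adjusted p-values of up to 0.0819 without HetTP replicate 2 and 0.141 without KOTP replicate 2. Rfc5 was also called in KOTN (log2 -0.92 ± 0.27), a call lost in 9 of 16 fits, with an adjusted p of up to 0.123 without KOTN replicate 1. Clspn, the fork mediator claspin, averaged 12.3 ± 4.29 CPM in KOTN and 43.3 ± 23.9 CPM in HetTN libraries (adjusted p = 0.0247, and up to 0.0808 without KOTN replicate 1), and missed the threshold in tdTomato-positive cells (adjusted p = 0.0531). Pole, the catalytic subunit of polymerase epsilon, had the largest p of its group, at 11.6 ± 4.54 CPM in KOTP and 20.8 ± 8.53 CPM in HetTP libraries. For Pole the 95% interval of the log2 fold change ran from -1.91 to 0.22, and for Rpa2, which binds single-stranded DNA, it ran from -1.37 to -0.12 without passing adjustment (adjusted p = 0.133).

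Both genes of Okazaki fragment maturation were lower in KOTP cells. LIG1 seals nicks between fragments, and FEN1 removes the flaps that carry their primers. Lig1 had 25.7, 31.3, 21.6 and 33.2 CPM in KOTP libraries, against 85.7, 119.8, 140.6 and 139.3 CPM in HetTP libraries. In TN cells, Lig1 had 51.0, 48.3, 45.5 and 58.0 CPM in KOTN libraries, against 81.7, 152.4, 250.9 and 104.7 CPM in HetTN libraries. No library overlapped in either population, at fold changes of 0.231 (log2 -2.12 ± 0.29, adjusted p = 9.18e-05) and 0.344 (log2 -1.54 ± 0.28, adjusted p = 0.00171). Fen1 had 28.1, 22.1, 24.7 and 27.6 CPM in KOTP libraries, against 86.1, 102.8, 57.0 and 107.0 CPM in HetTP libraries. In TN cells, Fen1 had 27.0, 41.4, 38.4 and 44.6 CPM in KOTN libraries, against 124.1, 32.9, 69.1 and 46.3 CPM in HetTN libraries. The tdTomato-positive groups were fully apart (log2 -1.78 ± 0.33, adjusted p = 0.00167), and the tdTomato-negative groups overlapped (log2 -0.84 ± 0.33, adjusted p = 0.113).

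Ribonucleotide reductase, which makes deoxynucleotides, was lower in both of its S phase subunits. Rrm1 had 65.5, 31.3, 58.1 and 39.7 CPM in KOTP libraries, against 157.1, 155.0, 158.2 and 148.3 CPM in HetTP libraries. In TN cells, Rrm1 had 47.4, 69.2, 74.2 and 65.2 CPM in KOTN libraries, against 205.4, 152.2, 133.8 and 119.3 CPM in HetTN libraries. Neither comparison showed overlap, and the HetTP libraries were the most even of all values in that group (log2 -1.67 ± 0.23, adjusted p = 9.94e-05, and log2 -1.25 ± 0.23, adjusted p = 0.00161). Rrm2 had 35.2, 21.6, 27.8 and 29.8 CPM in KOTP libraries, against 75.8, 237.3, 107.5 and 151.7 CPM in HetTP libraries. In TN cells, Rrm2 had 33.5, 57.6, 54.1 and 62.7 CPM in KOTN libraries, against 207.2, 171.4, 164.2 and 74.3 CPM in HetTN libraries. The fold change was 0.2 in tdTomato-positive cells (log2 -2.32 ± 0.34, adjusted p = 0.000203) and 0.337 in tdTomato-negative cells (log2 -1.57 ± 0.33, adjusted p = 0.00571), without overlap.

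The nucleotide synthesis enzymes Tyms and Tk1 were less clear between genotypes. Tyms, thymidylate synthase, had 26.4, 10.9, 14.9 and 24.8 CPM in KOTP libraries, against 25.1, 68.0, 42.3 and 45.0 CPM in HetTP libraries. HetTP replicate 1 lay inside the KOTP range, and the call (log2 -1.23 ± 0.36, adjusted p = 0.0364) was lost in 10 of 16 fits, with an adjusted p of up to 0.126 without KOTP replicate 2. Tk1, thymidine kinase, had 44.7, 31.8, 35.1 and 39.2 CPM in KOTP libraries, against 30.8, 47.4, 112.6 and 57.7 CPM in HetTP libraries. In TN cells, Tk1 had 66.9, 62.6, 51.4 and 72.5 CPM in KOTN libraries, against 50.5, 119.2, 80.7 and 104.8 CPM in HetTN libraries. Both pairs overlapped through replicate 1 of the heterozygous group, and neither was called (log2 -0.72 ± 0.32, adjusted p = 0.2, and log2 -0.49 ± 0.32, adjusted p = 0.414).

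All 4 genes of chromatin assembly and maintenance were lower in KOTP cells. CHAF1A and CHAF1B are subunits of the CAF-1 complex that places new histones behind the fork, UHRF1 recruits the maintenance DNA methyltransferase and SLBP binds histone messenger RNA. Chaf1a had 5.0, 2.8, 5.0 and 3.8 CPM in KOTP libraries, against 31.6, 19.8, 24.9 and 45.8 CPM in HetTP libraries. In TN cells, Chaf1a had 9.1, 14.8, 11.7 and 9.3 CPM in KOTN libraries, against 10.7, 70.7, 62.6 and 28.3 CPM in HetTN libraries. The KOTP libraries were well below all HetTP libraries (fold 0.136, log2 -2.88 ± 0.50, adjusted p = 0.000915), and among tdTomato-negative cells HetTN replicate 1 fell into the KOTN range (log2 -1.94 ± 0.48, adjusted p = 0.0148). The call in tdTomato-negative cells was lost without KOTN replicate 1 (adjusted p = 0.0506) or KOTN replicate 4 (adjusted p = 0.0542). Uhrf1 had 12.7, 8.6, 6.3 and 11.9 CPM in KOTP libraries, against 49.4, 73.4, 33.2 and 48.3 CPM in HetTP libraries. In TN cells, Uhrf1 had 16.5, 11.8, 13.3 and 21.2 CPM in KOTN libraries, against 76.2, 61.9, 38.9 and 18.7 CPM in HetTN libraries. Only HetTN replicate 4 came into the KO range (log2 -2.37 ± 0.41, adjusted p = 0.00082, and log2 -1.64 ± 0.40, adjusted p = 0.0129, the second reaching 0.0521 without KOTN replicate 2).

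Slbp had the smallest fold change of the 24 genes called for KOTP over HetTP. Slbp had 124.4, 126.8, 125.1 and 129.8 CPM in KOTP libraries, against 157.7, 257.8, 219.5 and 171.2 CPM in HetTP libraries. In TN cells, Slbp had 128.7, 140.5, 153.9 and 149.4 CPM in KOTN libraries, against 197.7, 167.6, 192.1 and 208.9 CPM in HetTN libraries. The groups did not overlap in either population, and the difference passed the threshold in tdTomato-positive cells (log2 -0.67 ± 0.15, adjusted p = 0.00653) but not in tdTomato-negative cells (log2 -0.42 ± 0.15, adjusted p = 0.0836). Chaf1b had the largest p of this role group, with 28.3 ± 5.80 CPM in KOTP and 63.5 ± 33.0 CPM in HetTP libraries. Its call (adjusted p = 0.0322) was lost in 6 of 16 fits, with an adjusted p of 0.121 without HetTP replicate 2.

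**Figure D3:**
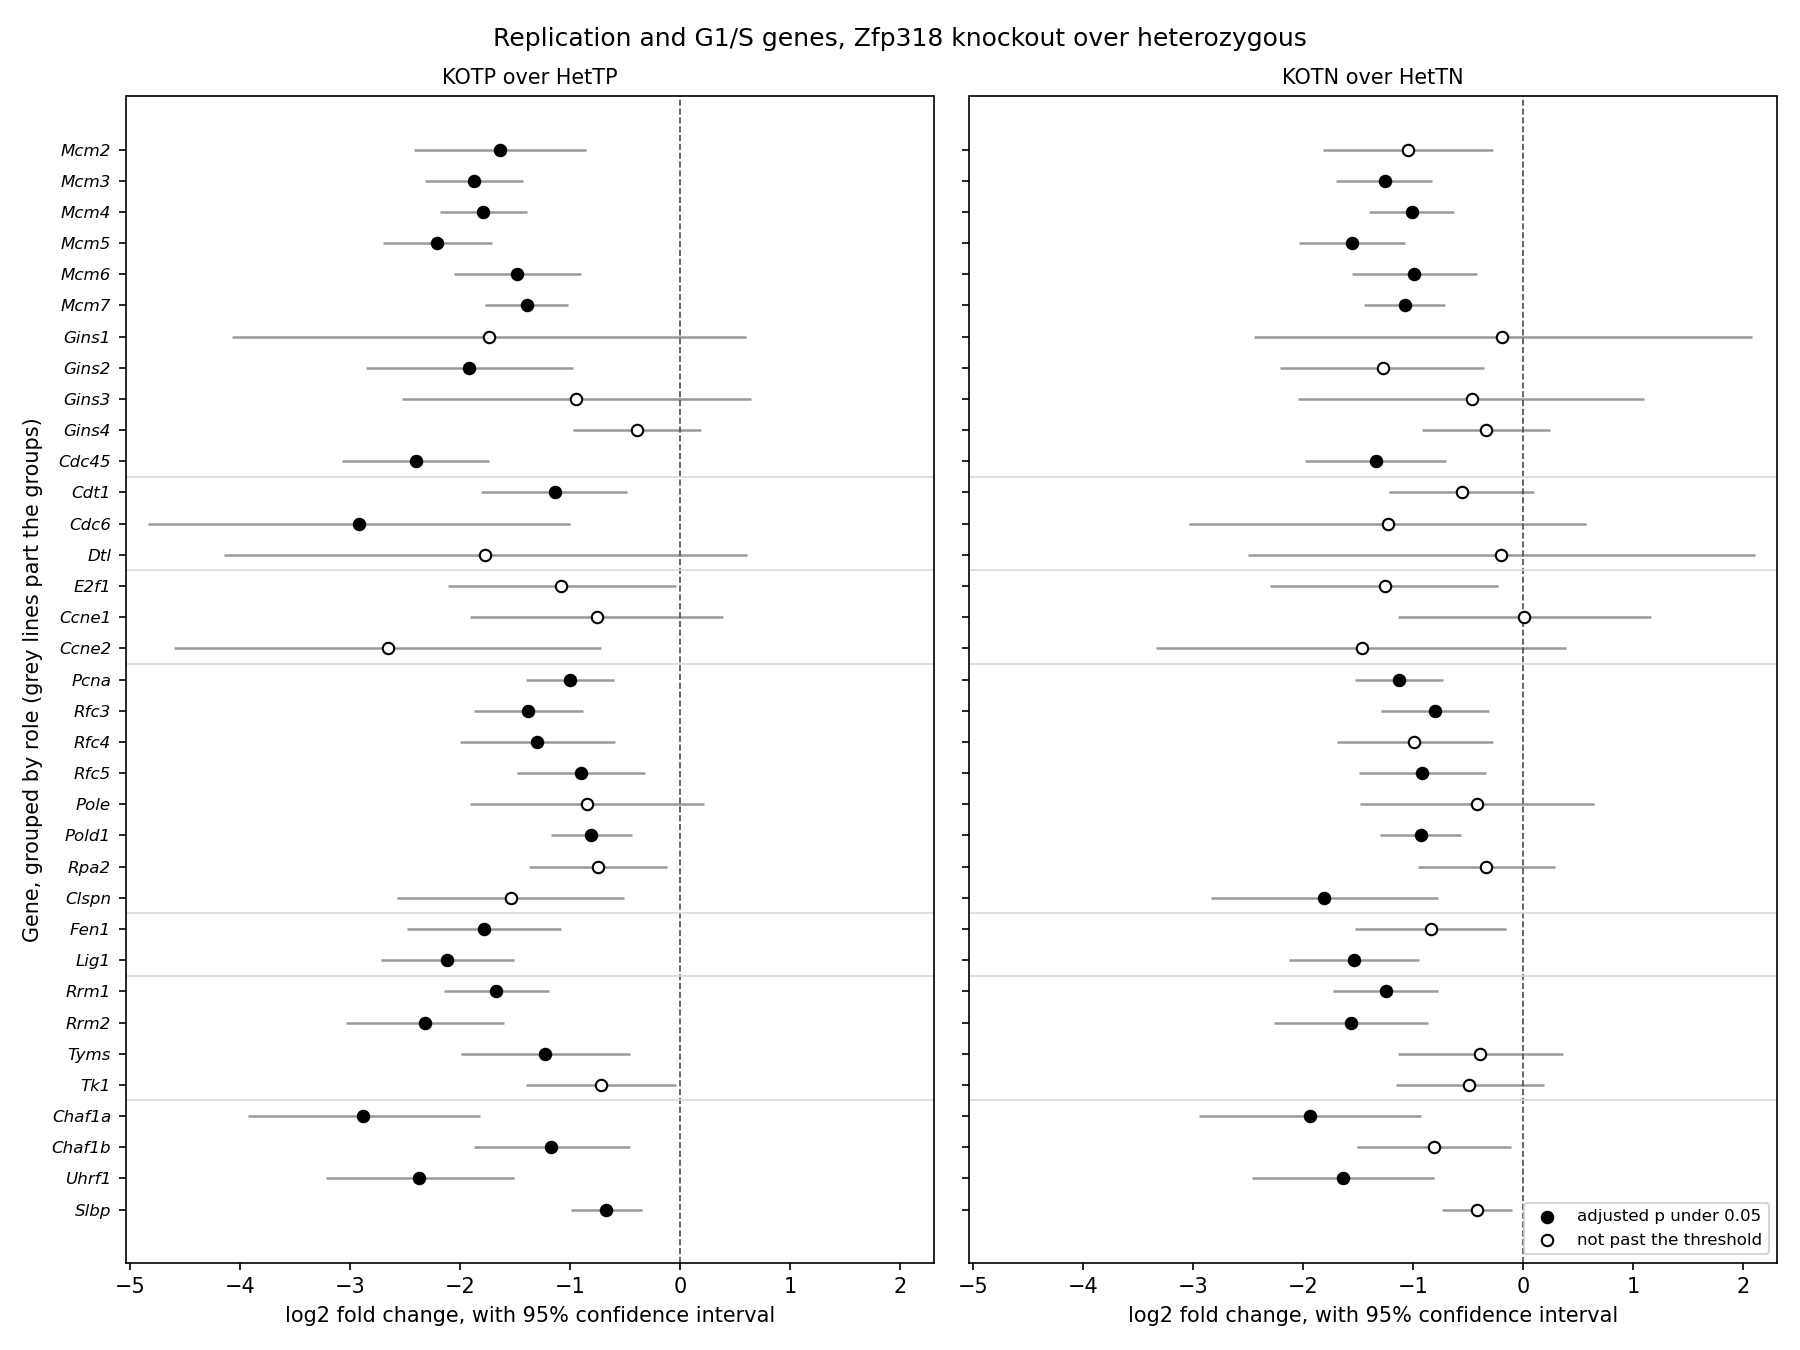
Log2 fold changes (points) with 95% confidence intervals (lines) of the 35 genes for KOTP over HetTP (left) and KOTN over HetTN (right), ordered by role; filled points have an adjusted p under 0.05. All 35 points on the left and 34 on the right lie below 0, and the widest intervals on the left belong to Dtl, Gins1, Ccne2 and Cdc6.

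Within heterozygous cells, the reporter did not separate the group. None of the 35 genes differed between HetTP and HetTN cells by edgeR's quasi-likelihood test, and none had an unadjusted p under 0.05, while 0% of all 9703 genes tested passed after adjustment and 5.02% had an unadjusted p under 0.05. DESeq2 and limma voom also called none of the 35. All 35 genes overlapped between the libraries of both groups, while 2.27% of all genes tested lay fully below and 2.59% fully above, with a median log2 fold change of 0.02. The summed level averaged 3249.7 ± 624.0 CPM in HetTP and 3324.3 ± 302.0 CPM in HetTN libraries (SD, n = 4 each). The spread limits this comparison: the median width of the 95% intervals was 1.72 log2 units. The smallest p belonged to Clspn, with 19.4 ± 11.1 CPM in HetTP and 43.3 ± 23.9 CPM in HetTN libraries (log2 -1.16, 95% interval -2.39 to 0.08). For Mcm4 the interval ran from -0.16 to 0.87, and for Pcna from -0.97 to 0.09.

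Within KO cells, tdTomato-positive cells had less of the replication RNAs than tdTomato-negative cells. Fitted on the 8 KO libraries, 9 of the 35 genes were lower in KOTP than in KOTN cells and none was higher, while 2.37% of all 9974 genes tested were called, 1.47% lower and 0.892% higher. The median log2 fold change was -0.54, against 0.01 over all genes, and 32 estimates lay below 0. In 16 of the 35 every KOTP library lay below every KOTN library, which 4.39% of all genes tested did, and none of the 35 lay fully above, as 3.06% did. The summed level was 1251.0 ± 49.2 CPM in KOTP and 1655.2 ± 96.9 CPM in KOTN libraries, a ratio of 0.756 with no overlap. Fitted with all 16 libraries, none of the 35 genes was called in this comparison, and 2 genes were called in all.

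The 9 genes were Mcm2, Mcm3, Mcm5 and Mcm6 of the helicase, Cdc6, Lig1, Rrm2, Tk1 and Chaf1a, whose values in each library are given above. Tk1 had the clearest pattern that the genotype comparisons did not show: every KOTP library, at up to 44.7 CPM, lay below every KOTN library, at 51.4 CPM or more (log2 -0.73 ± 0.14, adjusted p = 0.00278). For Mcm5 the log2 fold change was -0.74 ± 0.14 (adjusted p = 0.00176), for Mcm6 -0.65 ± 0.12 (adjusted p = 0.0015) and for Mcm3 -0.68 ± 0.13 (adjusted p = 0.00396). Lig1 was at 0.558 times its KOTN level (adjusted p = 0.00175), Rrm2 at 0.555 times (adjusted p = 0.00733) and Chaf1a at 0.372 times (adjusted p = 0.00812). Chaf1a lost its call without KOTN replicate 2 (adjusted p = 0.0727). Mcm2 (log2 -0.54 ± 0.13, adjusted p = 0.0154) lost it in 3 of the 8 fits with 1 library left out, with an adjusted p of 0.104 without KOTN replicate 4. Cdc6 (log2 -1.39 ± 0.38, adjusted p = 0.0461) lost it in 7 of 8, with an adjusted p of 0.179 without KOTN replicate 4. Mcm4, Mcm7, Cdc45 and Pcna were just outside the threshold, at adjusted p-values of 0.0637, 0.0598, 0.0895 and 0.0972. The highest estimate belonged to Pold1, at a log2 fold change of 0.15.

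Markers moved here too. The 10 germinal center markers summed to between 274.9 and 352.4 CPM in KOTP libraries, against between 445.3 and 572.4 CPM in KOTN libraries, and 4 of the 10 were lower in KOTP. Of the 17 tested genes of G2, M and mitosis, 5 were lower in KOTP, with sums between 372.3 and 654.8 CPM in KOTP libraries and between 642.1 and 834.2 CPM in KOTN libraries. The macrophage markers summed to between 78.4 and 110.2 CPM in KOTP libraries, against between 110.4 and 164.2 CPM in KOTN libraries. Their part in the result was not tested. T cell markers were near 0 in both KO groups.

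The comparisons of KOTP with HetTP and of KOTP with KOTN share the KOTP libraries, so their values are given side by side and not as independent support. Whether the difference between tdTomato-positive and tdTomato-negative cells itself differed between the genotypes was tested with all 16 libraries. None of the 35 genes passed the threshold by edgeR, DESeq2 or voom, while 0.122% of all genes did, 0.0468% below 0 and 0.0749% above. By edgeR 3 of the 35 had an unadjusted p under 0.05, as did 9.28% of all genes tested. The estimates were below 0 for 30 of the 35, with a median of -0.58, against -0.05 over all genes. Mcm4 had the smallest p, with a difference of log2 fold changes of -0.78 (95% interval -1.32 to -0.23, adjusted p = 0.286), followed by Cdc45 at -1.06 (95% interval -1.96 to -0.16, adjusted p = 0.398).

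**Figure D4:**
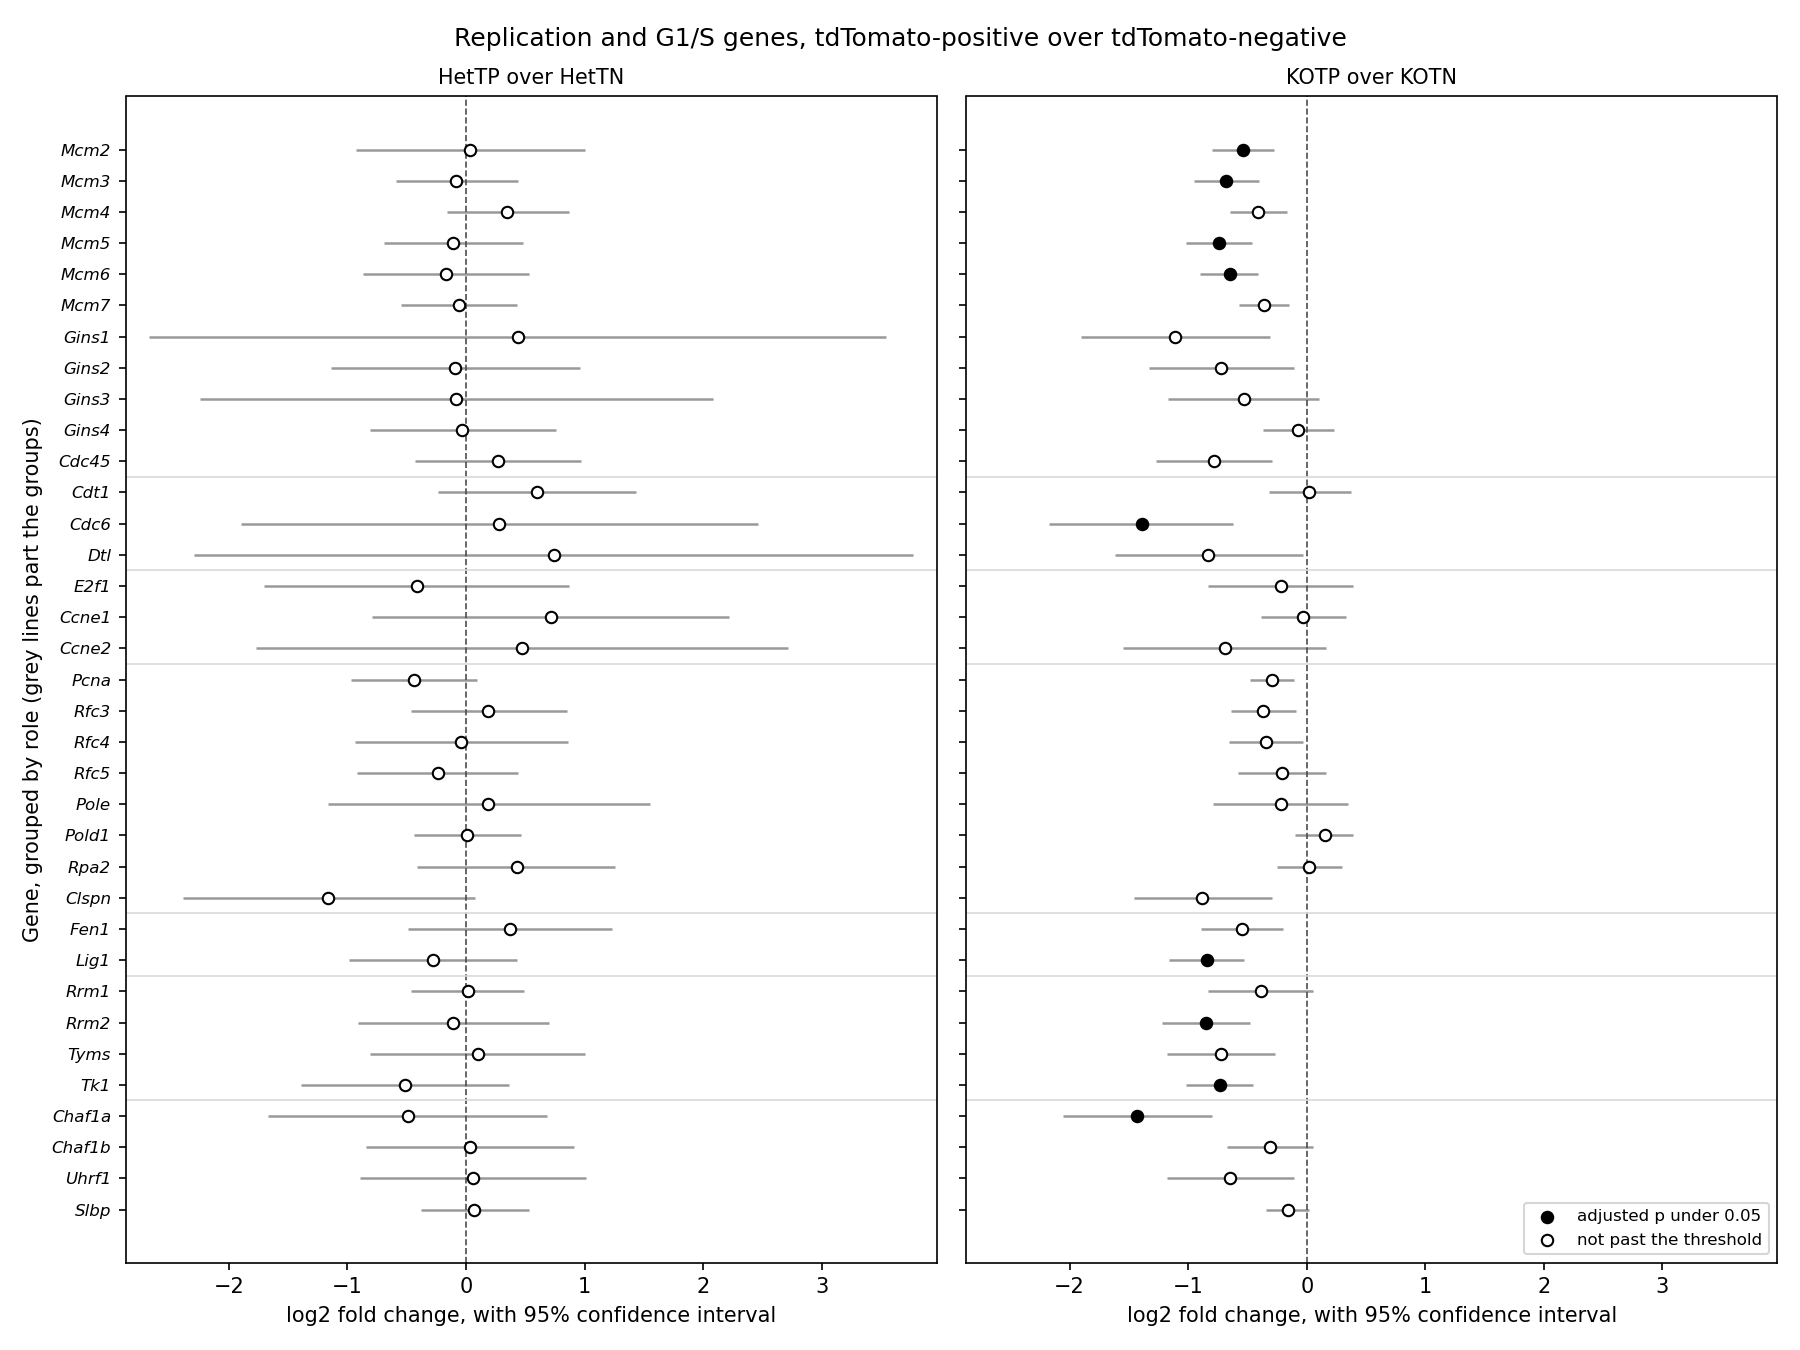
Log2 fold changes (points) with 95% confidence intervals (lines) of the 35 genes for HetTP over HetTN (left) and KOTP over KOTN (right), each fitted on the 8 libraries of its own table; filled points have an adjusted p under 0.05. The intervals are wider on the left, where no gene passes the threshold, than on the right, where 9 pass, all below 0.

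KOTP had the lowest mean of the 4 groups for 32 of the 35, and both KO groups lay below both heterozygous groups for 33. The exceptions to the second pattern were Ccne1 and Tk1. No library was the lowest or the highest of its group for all 35 genes. HetTP replicate 1 was the lowest HetTP library for 20 of the 35 genes and HetTP replicate 2 the highest for 19. Among KO libraries, KOTP replicate 1 was the highest of its group for 16 and KOTN replicate 4 for 19. The median coefficient of variation of a gene over 4 libraries was 18% in KOTP, 32.7% in HetTP, 17.9% in KOTN and 43.6% in HetTN. Per kilobase of coding length, Slbp (141.9 ± 2.71 CPM per kb) and Pcna (138.8 ± 8.84 CPM per kb) were the most abundant of the 35 in KOTP cells. They did not differ beyond their spread, and Gins4 followed at 64.0 ± 5.56 CPM per kb. In HetTP cells Pcna led with 277.7 ± 84.0 CPM per kb, followed by Slbp with 225.9 ± 51.5 CPM per kb and Rrm2 with 114.4 ± 56.0 CPM per kb. Rrm2 ranked at place 3 in HetTP and at place 12 in KOTP cells, where it had 22.9 ± 4.48 CPM per kb. Pole was the lowest of the 35 in HetTP cells, at 3.0 ± 1.24 CPM per kb.

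A second list held 59 other replication genes, from origin recognition, other polymerase and clamp loader subunits, nucleotide metabolism and the S phase checkpoint. Of these 57 were tested, and 19 were lower and 1 higher in KOTP than in HetTP cells (33.3% lower, against 5.22% of all genes), with a median log2 fold change of -0.94. In KOTN against HetTN, 9 were lower and none higher. Among those with the smallest p were the exonuclease Exo1, cyclin A2 (Ccna2) and deoxycytidine kinase (Dck). Exo1 had 8.5, 2.8, 2.0 and 3.5 CPM in KOTP libraries, against 26.5, 57.3, 38.0 and 23.2 CPM in HetTP libraries (log2 -3.11 ± 0.52, adjusted p = 0.000636). Every KOTP library lay below every HetTP library for Exo1, and the log2 fold changes of Ccna2 and Dck were -2.25 ± 0.39 and -1.53 ± 0.27. Samhd1 was the only one of the 57 that was higher in KOTP, and its product breaks deoxynucleotides down. Samhd1 had 441.9, 411.8, 468.6 and 379.3 CPM in KOTP libraries, against 300.9, 256.9, 338.0 and 235.7 CPM in HetTP libraries (log2 0.59 ± 0.13, adjusted p = 0.00653, and 0.106 when library totals were used without TMM). In KO cells Samhd1 was also higher in KOTP than in KOTN cells, where it averaged 344.1 ± 35.6 CPM (log2 0.32 ± 0.08, adjusted p = 0.0296), and this call was lost in 4 of 8 fits with 1 library left out, with an adjusted p of up to 0.198 without KOTN replicate 2. In HetTN it averaged 352.5 ± 33.9 CPM.

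E2F words stood in the windows of 17 of the 48 genes of the second list with a window (35.4%). Among the 35 genes, both the called and the uncalled genes held them: Gins3 and Dtl, with no call in any comparison, carry an E2F word at -41 and -8, and Pcna and Rrm2, called in both genotype comparisons, have none of these words in their windows.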

How the data were processed

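Raw counts per coding sequence were deposited by the authors in 2 tables, 1 per genotype. Per the submitters' processing notes the tools were Trim Galore, STAR 2.2.0 and featureCounts with the build mm10; strand and multimapping settings are not given in the sources used here. The authors also deposited a normalized signal per library, scaled by mapped reads according to the file headers, which served only to recover the counts per mapped read. Rows were joined by symbol (22680 entries, 22675 genes). Tests were edgeR 4.0.16 quasi-likelihood fits in R 4.3.3 with TMM scaling and Benjamini-Hochberg adjustment over all genes tested: genotype comparisons and the difference of differences on all 16 libraries, reporter comparisons on the 8 libraries of a table. Scripts were tested on simulated data. DESeq2 1.42.0, limma 3.58.1 voom, other scalings and filters, a replicate block and leaving out each library were alternatives. Genes with values per library are, per role, the 3 with the smallest p for KOTP over HetTP and all called in a reporter comparison; the one with the largest p is also named. The genes and lists were chosen with earlier results of these data known. Gene positions and coding lengths are from GENCODE M21 (GRCm38). Some genes that the naming rule would give are not reported here.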

Additional observations from a re-analysis of the deposited data

Results flagged for a closer look

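Of 144 groups of 4 libraries examined, 3 had a library far from the others, where chance gives about 1 in 20. Mcm2 was at 40 CPM in HetTN replicate 2, the lowest of its group. Ccne1 was at 58.9 CPM in HetTN replicate 1, the highest of its group. Clspn was at 5.7 CPM in KOTP replicate 3, the lowest of its group.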

How the results depend on the processing

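With 1 library left out, between 18 and 27 of the 35 genes were called for KOTP over HetTP, 11 to 18 for KOTN over HetTN and 7 to 12 for KOTP over KOTN, and none for HetTP over HetTN or the difference of differences. Of the calls, 18 of 24, 10 of 16 and 6 of 9 were kept in every such fit. Over the other settings the counts were 21 to 26, 13 to 20 and, for KOTP over KOTN, 8 to 13, or 0 with all 16 libraries in 1 fit. Calls among all genes ranged, with 1 library left out, from 722 to 1296, from 608 to 1305, from 128 to 396 and, for the difference, from 1 to 41. KOTN over HetTN gave 724 genes on its own 8 libraries. HetTP over HetTN gave 1 gene with no filter, 38 with DESeq2 and 114 with all 16 libraries, and KOTP over KOTN gave 357 with DESeq2 and 2 with all 16. The difference gave 6 genes with library totals, 194 with DESeq2, 7 with voom and 67 without HetTP replicate 3 and HetTN replicate 2. Deviations from the group mean correlated between -0.03 and 0.1 for libraries with the same replicate number, which cannot tell whether such libraries are paired. A replicate block gave 21, 15, 0, 9 and 0 of the 35 genes and 1 gene for the difference. The causes were not tested. The Gins1 log2 fold change for KOTP over HetTP was 0.59 with voom. Without TMM the summed KOTP level was 1177.3 CPM. Lower and higher calls for KOTP over HetTP were 558 and 541, against 469 and 693 with upper quartile scaling and 911 and 351 with library totals, which moved the median of all genes to -0.25. For KOTN over HetTN they were 521 and 600, against 429 and 745 and 634 and 487. With voom the medians of all genes were 0.2 and 0.33.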
